A study of Vitis labrusca and Vitis cinerea and Vitis acerifolia with 56 samples.

Results

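Dihydroflavonol 4-reductase (DFR, VIT_18s0001g12800) and leucoanthocyanidin dioxygenase (LDOX, VIT_02s0025g04720) were followed across 56 RNA-sequencing libraries of grape berries. They were taken by identifier and are 2 of the 29971 genes in the table. Both were found, and both passed the filter on low values in every comparison. The series addresses how sunlight bears on anthocyanin accumulation, and its authors describe V. labrusca as sunlight-dependent and the other 2 species as sunlight-independent. The berries came from Vitis labrusca (24 libraries), whose cultivar entry gives a hybrid of Vitis vinifera and Vitis labrusca, from the American native species Vitis cinerea (22 libraries), and from the wild species Vitis acerifolia (10 libraries). All vines received standard care. Clusters were kept until harvest in foil-covered boxes (sides of 40, 25 and 25 cm, "boxed"), were boxed and then uncovered at pre-veraison or at veraison ("uncovered"), or stayed in sunlight throughout. V. labrusca gave 6 boxed, 8 uncovered and 8 sunlight libraries, V. cinerea gave 5 boxed, 8 uncovered and 7 sunlight libraries, and V. acerifolia gave 3 boxed, 4 uncovered and 3 sunlight libraries. Another 2 libraries each of V. labrusca and V. cinerea were from young berries, the earliest stage, for which no covering is given. The other stages were pre-veraison, veraison (the onset of ripening and colour), 2 weeks after veraison, and maturity.

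DFR and LDOX act one after the other in flavonoid synthesis. DFR reduces dihydroflavonols to colourless leucoanthocyanidins, and LDOX oxidises these to anthocyanidins, which a glucosyltransferase, UFGT, turns into stable coloured anthocyanins. Flavonol synthase competes with DFR for its substrates, while leucoanthocyanidin reductases and anthocyanidin reductase draw on the products of DFR and of LDOX to make the building blocks of tannins. In grapes, DFR and LDOX therefore serve tannin synthesis in the green berry as well as colour in the ripening one, whereas UFGT serves colour.

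Values are FPKM, fragments scaled by transcript length and by library total, so levels of the 2 genes can be set side by side. The total FPKM of a library lay between 764972 and 1882693. In 3 V. labrusca libraries (young replicate 1, veraison sunlight replicate 1 and, 2 weeks after veraison, replicate 1 of the berries uncovered at pre-veraison) few low values were present, with 11568 to 14157 genes above 0.01 FPKM against at least 16361 in the others. Genes private to 1 species up to veraison went against the label in 9 of the 31 later libraries. Among these were all 3 mature V. acerifolia libraries other than the boxed one, V. labrusca mature sunlight replicate 2 and V. cinerea mature sunlight replicate 1. The rest were every uncovered V. cinerea library taken 2 weeks after veraison, and V. labrusca mature replicate 2 uncovered at pre-veraison. The private genes matched the label in all 25 libraries taken up to veraison, which were used to define them. Each of these libraries was scored with private genes defined without it. The stage entry of 2 V. labrusca veraison libraries, boxed replicate 2 and sunlight replicate 2, conflicts with their titles, which were followed. The descriptions of all 24 libraries titled V. labrusca name V. cinerea instead, while their organism entries give V. labrusca, so that their species, and the private genes defined by it, follow titles and organism entries. UFGT and its activator MYBA1 were low up to pre-veraison, at most at 5.93 and 9.40 FPKM. At maturity their medians were 137 and 33.2 FPKM and their lowest values 33.0 and 6.98 FPKM. The medians of the tannin genes ANR and LAR1 fell from 72.9 and 9.37 FPKM in young berries to 3.63 and 0.255 FPKM at maturity. The median of GIN1, an invertase gene high in green berries, was 407 FPKM in young berries, 1144 at pre-veraison and 1166 at veraison. It was 3.53 FPKM in libraries taken 2 weeks after veraison and 18.7 FPKM at maturity, but a mature library reached 584 FPKM. The tannin regulator MYBPA1 did not follow the stages, with medians of 41.0 and 23.1 FPKM and up to 123 FPKM at maturity.

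Both genes were expressed in every library. LDOX spanned 34.0 to 2282 FPKM (median 623), a 67.2-fold range, and DFR spanned 44.4 to 383 FPKM (median 144), an 8.63-fold range. LDOX stood above DFR in 50 libraries and below it in 6, and the median ratio of LDOX to DFR was 3.30. The median rank of LDOX among all genes of a library was 258.5 and that of DFR was 1101.5, where rank 1 is the highest FPKM. Among species, the median of DFR was 222 FPKM in V. labrusca, 91.7 in V. cinerea and 240 in V. acerifolia, and that of LDOX was 910, 383 and 769 FPKM. The ranges of the 3 species overlapped for both genes. These medians pool unlike mixes of stages and were not rescaled for the total FPKM of a library. That total had a median of 919310 in V. labrusca, 1113242 in V. cinerea and 1498915 in V. acerifolia, so the species medians are not strictly comparable.

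**Figure D1:**
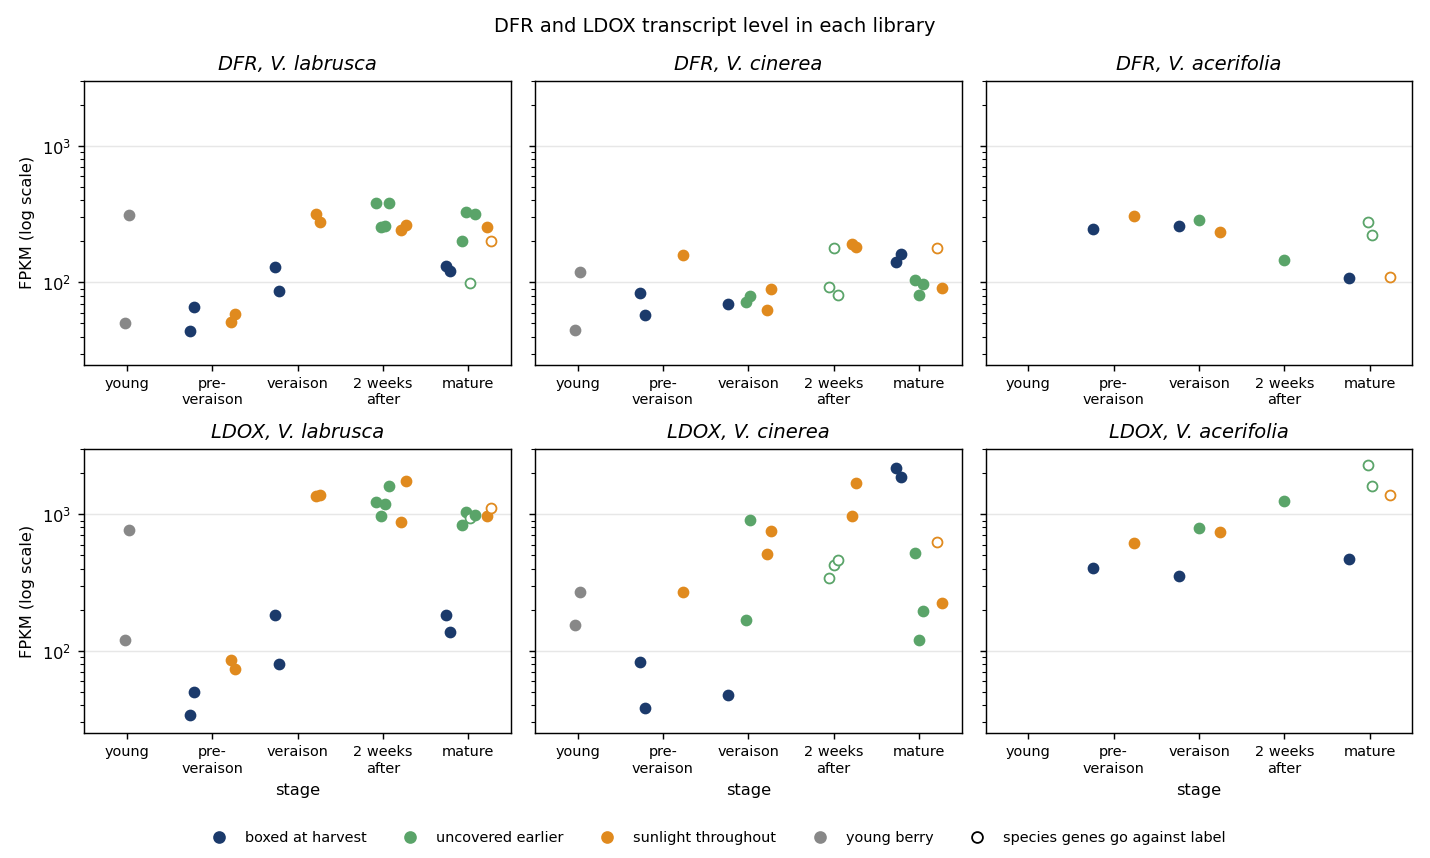
FPKM (log axis) of DFR (top) and LDOX (bottom) in each of the 56 libraries by stage, with a panel per species and a colour per light treatment; open circles mark the 9 libraries whose species-private genes go against the label. LDOX runs from 34.0 to 2282 FPKM and DFR from 44.4 to 383 FPKM, and the 2 mature boxed V. cinerea libraries lie near the top for LDOX, while those of V. labrusca, at 182 and 137 FPKM, lie below the other mature V. labrusca libraries.

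In V. labrusca in sunlight, both genes rose steeply at veraison. DFR had 317 and 279 FPKM at veraison, against 51.6 and 58.8 FPKM at pre-veraison. LDOX had 1350 and 1396 FPKM at veraison, against 85.6 and 73.0 FPKM at pre-veraison. The stages did not overlap for either gene. Here and below, absence of overlap between groups of 1 or 2 libraries only describes those libraries. Its share over all genes was not counted. Differences were tested with limma on log2(FPKM + 1), with p adjusted by Benjamini-Hochberg over all genes and a threshold of 0.05. DFR rose by 2.41 (SE 0.55, adjusted p = 0.00440) and LDOX by 4.10 (SE 0.71, adjusted p = 0.000453) on this scale. Both were among the 15.3% of genes that passed. In whole berries, a change in the share of a cell type and a change in RNA per cell cannot be told apart. The call of DFR was lost without veraison sunlight replicate 1, one of the sparse libraries (2.32, adjusted p = 0.0511). The stage entry of veraison sunlight replicate 2 conflicts with its title, so both veraison libraries carry a doubt.

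From veraison on, V. labrusca berries in sunlight kept high levels. DFR had 241 and 264 FPKM 2 weeks after veraison and 254 and 200 FPKM at maturity. LDOX had 876 and 1762 FPKM 2 weeks after veraison and 965 and 1105 FPKM at maturity. Between maturity and veraison the fitted differences were -0.40 for DFR and -0.41 for LDOX, and neither passed (adjusted p = 0.772 and 0.846, limma), where 2.37% of genes did. Before ripening, the young libraries differed: replicate 1, which is sparse, had 50.3 FPKM of DFR and 120 FPKM of LDOX, and replicate 2 had 314 and 763 FPKM. Pre-veraison sunlight minus young gave -1.18 for DFR (adjusted p = 0.226) and -1.92 for LDOX (adjusted p = 0.108), where 7.02% of genes passed. Without young replicate 1 both passed limma's test as lower at pre-veraison, DFR at -2.49 (adjusted p = 0.00153) and LDOX at -3.25 (adjusted p = 0.00593). Without young replicate 2 DFR was at 0.13 (adjusted p = 1) and LDOX at -0.59 (adjusted p = 0.769), so the comparison rests on which young library is kept.

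In V. cinerea in sunlight, neither gene passed the test between veraison and pre-veraison. DFR had 62.9 and 89.6 FPKM at veraison, against 159 FPKM in the 1 pre-veraison library. LDOX had 509 and 756 FPKM at veraison, against 270 FPKM at pre-veraison. With 2 libraries against 1, the stages did not overlap for either gene, DFR being lower and LDOX higher at veraison. So few libraries can separate without a difference between stages. Neither difference passed limma's test (DFR -1.07, adjusted p = 0.926, and LDOX 1.20, adjusted p = 0.998), where 0.639% of genes did. DFR then stood at 191 and 181 FPKM 2 weeks after veraison and LDOX at 972 and 1692 FPKM. At maturity the library labelled V. cinerea sunlight replicate 1 had 180 FPKM of DFR and 629 FPKM of LDOX, and replicate 2 had 91.2 and 224 FPKM. Mature minus veraison differences in sunlight were 0.76 for DFR and -0.72 for LDOX, and neither passed (adjusted p = 0.369 and 0.537, limma), where 19.2% of genes did. Young berries of V. cinerea had 45.1 and 119 FPKM of DFR and 153 and 268 FPKM of LDOX. Pre-veraison minus young gave 1.11 for DFR (adjusted p = 0.318) and 0.41 for LDOX (adjusted p = 0.849), where 12.6% of genes passed. Without 1 young library the values ranged from 0.42 to 1.80 for DFR and from 0.0089 to 0.82 for LDOX.

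Set side by side in sunlight, the libraries of V. labrusca and V. cinerea differed in DFR at veraison. Of the V. labrusca ones, replicate 1 is sparse and the stage entry of replicate 2 conflicts with its title. DFR was higher in V. labrusca than in V. cinerea by 1.97 (SE 0.55, adjusted p = 0.0123), where 21.7% of genes passed in either direction. Of 20333 genes, 789 passed as higher and 3614 as lower in V. labrusca, and the part of library state or stage was not tested. The DFR call was lost without V. labrusca veraison sunlight replicate 1 or V. cinerea veraison sunlight replicate 1. LDOX differed by 1.14 (SE 0.71, adjusted p = 0.268). At pre-veraison the differences, V. labrusca minus V. cinerea, were -1.51 for DFR and -1.76 for LDOX (adjusted p = 0.192 and 0.251), where 6.38% of genes passed. At maturity they were 0.81 and 1.46 (adjusted p = 1 for both), where 0.0148% of genes passed and where 1 of 2 libraries of each species goes against its label. Without the libraries that go against their labels they were 1.47 for DFR (adjusted p = 0.342) and 2.10 for LDOX (adjusted p = 0.319), and 784 of 20064 genes passed, against 3 of 20333 with them. Without 1 library each, they ranged from 0.32 to 1.30 for DFR and from 0.71 to 2.202 for LDOX, both lowest without V. cinerea replicate 2 and highest without V. cinerea replicate 1.

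In V. labrusca, LDOX was lower in boxed than in sunlight berries. Over pre-veraison, veraison and maturity together it fell by 2.38 (SE 0.55, adjusted p = 0.00708) in a fit of light status blocked by species and stage. LDOX lay below the sunlight mean of its stage in 6 of 6 boxed libraries. DFR lay below it in 5 of 6, with a difference of -0.73 (SE 0.25, adjusted p = 0.0728) that did not pass. In this comparison 6.31% of genes passed, and the median difference of all genes was 0.12. LDOX kept its call in every alternative and with each library left out. DFR gained one after median-ratio scaling of the libraries (-0.89, adjusted p = 0.0452), without the 9 libraries that go against their labels (-0.80, adjusted p = 0.0283), without pre-veraison sunlight replicate 1 (-0.83, adjusted p = 0.0455) and without pre-veraison boxed replicate 2 (-0.88, adjusted p = 0.0343).

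At pre-veraison, LDOX had 34.0 and 49.9 FPKM in boxed V. labrusca, against 85.6 and 73.0 FPKM in sunlight. DFR had 44.4 and 66.5 FPKM in boxed berries, against 51.6 and 58.8 FPKM in sunlight. LDOX did not overlap between treatments and DFR did. Neither passed (LDOX -0.92 and DFR -0.02, adjusted p = 1 for both, limma), where 0.0492% of genes did.

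At veraison, too, LDOX was lower in boxed berries. It had 183 and 79.7 FPKM in boxed V. labrusca, against 1350 and 1396 FPKM in sunlight. DFR had 130 and 86.2 FPKM in boxed berries, against 317 and 279 FPKM in sunlight. The treatments did not overlap for either gene. LDOX fell by 3.50 (SE 0.71, adjusted p = 0.0139), and DFR differed by -1.48 (SE 0.55, adjusted p = 0.142), where 2.69% of genes passed. The LDOX call was lost without the sparse libraries (adjusted p = 0.0674), without the libraries with a conflicting stage (adjusted p = 0.123), without sunlight replicate 1 (adjusted p = 0.168) and without boxed replicate 2 (adjusted p = 0.256).

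At maturity, LDOX had 182 and 137 FPKM in boxed V. labrusca, against 965 and 1105 FPKM in sunlight. DFR had 132 and 122 FPKM in boxed berries, against 254 and 200 FPKM in sunlight. Again the treatments did not overlap. LDOX fell by 2.70 (SE 0.71, adjusted p = 0.0294) and DFR differed by -0.82 (SE 0.55, adjusted p = 0.438), where 4.42% of genes passed. The second sunlight library carries 46.2% of the V. cinerea private genes and 4.55% of the V. labrusca ones. The LDOX call was lost without it (-2.60, adjusted p = 0.187), without boxed replicate 1 (-2.91, adjusted p = 0.0961) and without boxed replicate 2 (-2.50, adjusted p = 0.163). GIN1, a vacuolar invertase gene that is high in green berries and low in ripe ones, stood at 48.9 and 107 FPKM in the boxed libraries, against 0.802 and 2.74 FPKM in the sunlight libraries, and its part in the result was not tested.

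Within boxed V. labrusca berries, the genes were higher at maturity than at pre-veraison without passing the test. DFR had 132 and 122 FPKM at maturity, against 44.4 and 66.5 FPKM at pre-veraison, a difference of 1.21 (SE 0.55, adjusted p = 0.324). LDOX had 182 and 137 FPKM at maturity, against 34.0 and 49.9 FPKM at pre-veraison, a difference of 1.91 (SE 0.71, adjusted p = 0.196). The stages did not overlap for either gene, and 2.40% of genes passed.

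In V. cinerea, boxed libraries lay below sunlight libraries in LDOX up to veraison, without passing the test, and above them at maturity, where the test was passed. At pre-veraison LDOX had 83.1 and 38.0 FPKM in boxed berries, against 270 FPKM in the 1 sunlight library. DFR had 83.7 and 57.4 FPKM in boxed berries, against 159 FPKM in sunlight. Both genes lay lower in both boxed libraries, by -2.24 (SE 0.87, adjusted p = 0.333) for LDOX and -1.19 (SE 0.67, adjusted p = 0.610) for DFR, where 0.595% of genes passed. At veraison LDOX had 47.4 FPKM in the 1 boxed library, against 509 and 756 FPKM in sunlight. DFR had 69.4 FPKM in the boxed library, between the 62.9 and 89.6 FPKM of sunlight. The differences were -3.68 (SE 0.87, adjusted p = 0.155) for LDOX and -0.11 (SE 0.67, adjusted p = 1) for DFR, where 0.133% of genes passed. A group of 1 library was assumed to vary like the others.

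At maturity LDOX had 2197 and 1888 FPKM in boxed V. cinerea, against 629 and 224 FPKM in sunlight. DFR had 140 and 160 FPKM in boxed berries, against 180 and 91.2 FPKM in sunlight. LDOX did not overlap between treatments, with boxed berries on the high side, and DFR did overlap. LDOX rose by 2.44 (SE 0.71, adjusted p = 0.0302), among 10.0% of genes that passed, and DFR differed by 0.22 (SE 0.55, adjusted p = 0.898). Both boxed libraries carry 84.6% of the V. cinerea private genes, against 38.5% in the second sunlight library. The part of this gap in the result was not tested. The first sunlight library carries 77.3% of the V. labrusca private genes and 7.69% of the V. cinerea ones. Without that library LDOX kept its call (3.18, adjusted p = 0.0322). It lost the call without boxed replicate 1 (2.33, adjusted p = 0.162), boxed replicate 2 (2.55, adjusted p = 0.125) or sunlight replicate 2 (1.69, adjusted p = 0.235), and when V. cinerea was fitted by itself (adjusted p = 0.0663). GIN1 had 240 and 197 FPKM in the boxed libraries, against 2.48 and 23.3 FPKM in sunlight, and its part in the result was not tested.

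Within boxed V. cinerea berries, LDOX rose by more than either gene did between any other groups compared. LDOX had 2197 and 1888 FPKM at maturity, against 83.1 and 38.0 FPKM at pre-veraison. DFR had 140 and 160 FPKM at maturity, against 83.7 and 57.4 FPKM at pre-veraison. The stages did not overlap for either gene. LDOX rose by 5.15 (SE 0.71, adjusted p = 7.63e-05), among 5.37% of genes that passed, and DFR differed by 1.10 (SE 0.55, adjusted p = 0.284).

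Over the 3 stages together, boxed minus sunlight was -0.60 for LDOX (SE 0.62, adjusted p = 0.696) and -0.29 for DFR (SE 0.28, adjusted p = 0.671) in V. cinerea, where 0.360% of genes passed. For each gene, 3 of 5 boxed libraries lay below the sunlight mean of their stage. Without veraison boxed replicate 2 the LDOX value was 0.67 (adjusted p = 0.551), and without the pre-veraison sunlight library the DFR value was 0.034 (adjusted p = 0.987).

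The boxed minus sunlight difference of LDOX at maturity was unlike in the libraries of V. labrusca and V. cinerea. The V. labrusca difference minus the V. cinerea one was -5.14 for LDOX (SE 1.0, adjusted p = 0.0133), among 1.29% of genes that passed, and -1.05 for DFR (SE 0.77, adjusted p = 0.579). This comparison was added after the mature LDOX values had been seen. Without the V. labrusca and V. cinerea libraries that go against their labels the LDOX value was -5.79. That leaves 1 mature sunlight library in each species. The V. cinerea one carries 38.5% of the V. cinerea private genes, against 84.6% in both mature boxed libraries. The part of library identity and of ripening state in the result was not tested. The LDOX call was lost without V. cinerea boxed replicate 1 (-5.03) or V. labrusca sunlight replicate 2 (-5.04). At pre-veraison the same difference was 1.32 for LDOX and 1.17 for DFR (adjusted p = 1 for both), where 0.143% of genes passed. At veraison it was 0.19 for LDOX (adjusted p = 1) and -1.37 for DFR (adjusted p = 0.973), where 0.0246% of genes passed. Over the 3 stages it was -1.79 for LDOX (SE 0.83, adjusted p = 0.588) and -0.44 for DFR (adjusted p = 0.837). Without 1 library each, it ranged from -3.06 (without V. cinerea veraison boxed replicate 2) to -1.09 (without V. cinerea mature boxed replicate 1) for LDOX, and from -0.76 to -0.28 for DFR, and passed in none of these fits. With all libraries, limma called 0 genes (0%) for this difference over stages, and 1646 had an unadjusted p under 0.05. Directly between species, mature boxed LDOX was lower in V. labrusca than in V. cinerea by 3.68 (SE 0.71, adjusted p = 0.00276), among 8.81% of genes that passed, while DFR differed by -0.24 (SE 0.55, adjusted p = 0.880).

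**Figure D2:**
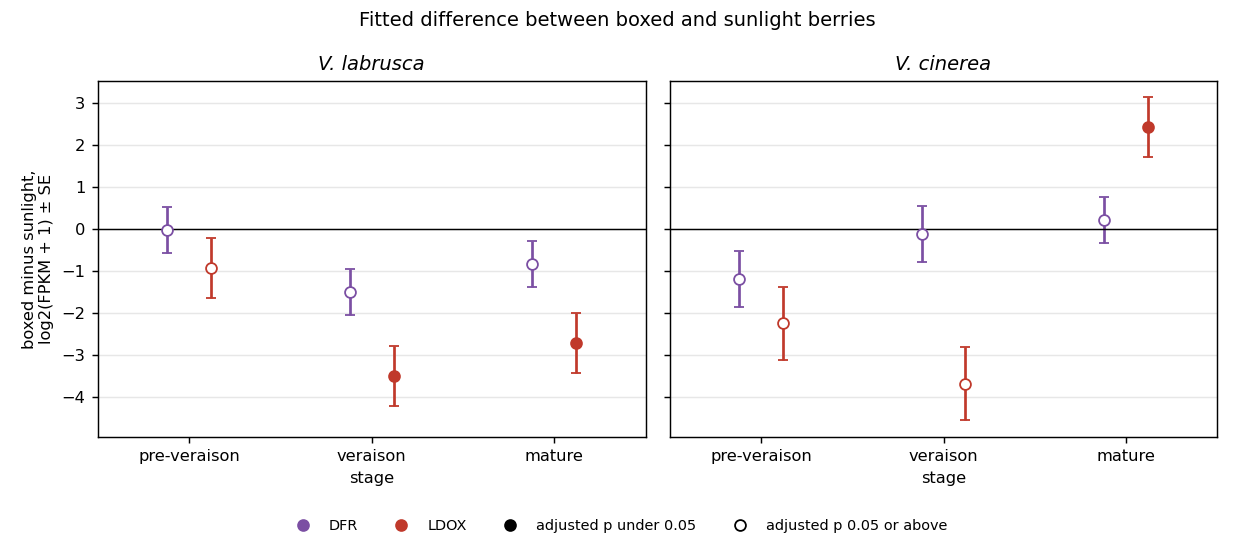
Fitted difference, boxed minus sunlight, on the log2(FPKM + 1) scale with its SE, for DFR and LDOX at 3 stages in V. labrusca (left) and V. cinerea (right); filled points have an adjusted p under 0.05. LDOX is at -2.70 in mature V. labrusca and at 2.44 in mature V. cinerea, and no DFR point is filled.

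V. acerifolia had 1 library per stage and treatment. LDOX had 406 FPKM in boxed berries, against 618 FPKM in sunlight, at pre-veraison. At veraison it had 350 FPKM in boxed berries, against 743 FPKM in sunlight. At maturity it had 468 FPKM in the boxed library, against 1389 FPKM in the library labelled sunlight, which carries 100% of the V. cinerea private genes. LDOX was thus lower in the boxed library at all 3 stages. DFR had 246 FPKM in boxed berries, against 305 FPKM in sunlight, at pre-veraison. At veraison it had 260 FPKM in the boxed library, against 234 FPKM in sunlight, and at maturity 108 FPKM in the boxed library, against 109 FPKM in the library labelled sunlight. Over stages the differences were -1.08 for LDOX (SE 0.80, adjusted p = 0.642) and -0.06 for DFR (SE 0.37, adjusted p = 1), where 0.844% of genes passed. In the libraries not marked as against their label, DFR was at 234 to 305 FPKM up to veraison and at 147 and 108 FPKM after it. The first of these was uncovered at veraison and carries 82.7% of the V. acerifolia private genes. The second was boxed and carries 21.4% of them, 13.6% of the V. labrusca ones and 7.69% of the V. cinerea ones. Its match to the label is therefore weak.

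In uncovered V. labrusca berries at maturity, LDOX stood above its boxed level in every library. At maturity LDOX had 1047 and 982 FPKM in berries uncovered at veraison and 835 and 944 FPKM in berries uncovered at pre-veraison, against 182 and 137 FPKM in boxed berries. DFR had 326 and 316 FPKM in berries uncovered at veraison and 203 and 98.6 FPKM in berries uncovered at pre-veraison, against 132 and 122 FPKM in boxed berries. Every uncovered library was above both boxed ones for LDOX, and the same held for DFR except in the replicate 2 uncovered at pre-veraison, which carries 69.2% of the V. cinerea private genes and 0% of those of V. labrusca. LDOX was higher by 2.68 in berries uncovered at veraison (SE 0.71, adjusted p = 0.0367), where 3.21% of genes passed. It was higher without passing, by 2.48 (SE 0.71, adjusted p = 0.0585), in berries uncovered at pre-veraison, where 2.53% of genes passed. The first call was lost without any 1 of the 4 libraries compared (2.47 to 2.88, adjusted p = 0.115 to 0.214). The second was gained after median-ratio scaling (2.69, adjusted p = 0.0443), without the sparse libraries (adjusted p = 0.0304) and when V. labrusca was fitted by itself (adjusted p = 0.0410). DFR differed by 1.33 (adjusted p = 0.210) for uncovering at veraison and 0.16 (adjusted p = 0.973) at pre-veraison. At 2 weeks after veraison, LDOX in uncovered berries ranged from 970 to 1610 FPKM and DFR from 255 to 383 FPKM, with sunlight berries at 876 and 1762 FPKM of LDOX and 241 and 264 FPKM of DFR.

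Over stages, uncovered minus sunlight in V. labrusca was 0.02 for LDOX (SE 0.56) and 0.11 for DFR (SE 0.26), with an adjusted p of 1 for both. There limma called 0 genes (0%), and 278 had an unadjusted p under 0.05.

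In V. cinerea at maturity, LDOX was lower in all 3 uncovered libraries than in both boxed ones. LDOX had 520 and 196 FPKM in berries uncovered at veraison and 120 FPKM in the 1 library uncovered at pre-veraison, against 2197 and 1888 FPKM in boxed berries. DFR had 104 and 96.7 FPKM in berries uncovered at veraison and 80.3 FPKM in the library uncovered at pre-veraison, against 140 and 160 FPKM in boxed berries. DFR, too, was lower in all 3 uncovered libraries. LDOX was lower by a difference of -2.67 (SE 0.71, adjusted p = 0.0150) in berries uncovered at veraison, where 12.8% of genes passed, and of -4.07 (SE 0.87, adjusted p = 0.00697) in the library uncovered at pre-veraison, where 6.81% passed. That test has 1 uncovered library, whose spread is taken from the other groups, so it has no replicate check of its own. The call for berries uncovered at veraison was lost without boxed replicate 1 (adjusted p = 0.103), boxed replicate 2 (adjusted p = 0.0759) or the replicate 2 uncovered at veraison (adjusted p = 0.180). DFR differed by -0.57 (adjusted p = 0.575) and -0.89 (adjusted p = 0.503). These comparisons share the boxed libraries with that of boxed and sunlight berries. Both boxed libraries carry 84.6% of the V. cinerea private genes. The libraries uncovered at veraison carry 30.8% and 38.5% of them, and the library uncovered at pre-veraison carries 23.1%. The part of this gap in the result was not tested. Over stages, uncovered minus sunlight was -1.30 for LDOX (SE 0.52, adjusted p = 0.316) and -0.53 for DFR (SE 0.24, adjusted p = 0.380), where 0.0198% of genes passed. Every uncovered V. cinerea library taken 2 weeks after veraison goes against its label, with 7.69% of the V. cinerea private genes. These libraries had 340, 427 and 463 FPKM of LDOX, against 972 and 1692 FPKM in sunlight. Their DFR was at 92.3, 180 and 81.2 FPKM, against 191 and 181 FPKM in sunlight.

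Because both genes lie on one route, the level of LDOX relative to DFR was set apart from their common level. In V. labrusca, log2 LDOX minus log2 DFR lay between -0.41 and 0.49 (median 0.03) in the 6 boxed libraries, against 0.31 to 2.46 (median 2.01) in the 6 sunlight libraries of the same stages. Boxed minus sunlight was -0.91 at pre-veraison, -2.01 at veraison and -1.88 at maturity. The mean over stages was -1.60, with p = 0.00926 in an exact two-sided permutation test within stages, the smallest p that its 216 arrangements allow. It stayed between -1.70 and -1.50 with each library left out. In V. cinerea the same quantity lay between -0.58 and 3.96 (median -0.01) in 5 boxed libraries, against 0.76 to 3.06 (median 1.80) in 5 sunlight libraries. Boxed minus sunlight was -1.06 at pre-veraison, -3.57 at veraison and 2.21 at maturity. The mean over stages was -0.80, with an exact two-sided permutation p = 0.5, where 54 arrangements allow no p under 0.0185. The 6 libraries with LDOX below DFR were all boxed, 3 of V. labrusca and 3 of V. cinerea, and none was mature.

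**Figure D3:**
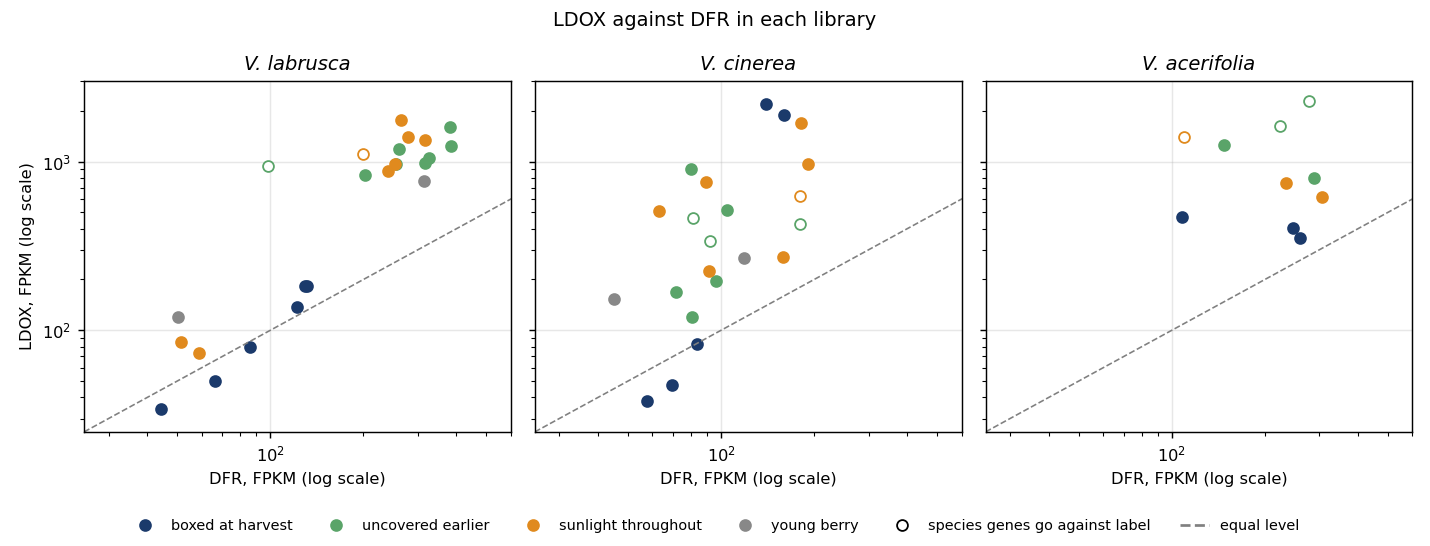
LDOX against DFR, both in FPKM on log axes, for each library in 3 panels by species; the dashed line marks equal levels. In V. labrusca the 6 boxed libraries lie along the line, with LDOX at 0.750 to 1.41 times DFR, and in V. cinerea the 2 mature boxed libraries lie far above it, at 15.7 and 11.8 times DFR.

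Other genes of the route were read from lists of 8 upstream genes, 6 downstream genes, 4 genes of competing branches and 10 regulators. In V. labrusca over stages, 7 of 8 upstream genes passed as lower in boxed berries (median of the list -2.09, against 0.12 for all genes). Of all genes 6.31% passed in this comparison, 281 of 20252 of them as lower. Among them the flavanone 3-hydroxylase F3H2 fell by 1.91 (adjusted p = 0.000265), and the chalcone synthases CHS2 and CHS3 fell by 2.40 and 2.62 (adjusted p = 0.000716 and 0.00112). Downstream, 2 of 6 genes passed as lower (median -1.50), the anthocyanin transporters AM3 (-1.89, adjusted p = 0.0125) and AM1 (-1.10, adjusted p = 0.0312), while UFGT was at -2.30 (adjusted p = 0.0592). Of the branches, flavonol synthase FLS1 fell by 3.18 (adjusted p = 0.0166), and the 3 genes of the tannin branch did not pass. Of the regulators, 6 of 10 passed as lower (median -1.90), among them the light-signalling factor HYH (-2.19, adjusted p = 0.00366) and the UFGT activators MYBA2 and MYBA1 (-2.24 and -2.28, adjusted p = 0.00788 and 0.00861). Within this route LDOX (-2.38) lay among the upstream genes and DFR (-0.73) just above the upper end of their range, which was -2.62 to -0.74. In V. cinerea over stages limma called 0 of these 28 genes, with 6 at an unadjusted p under 0.05, and in V. acerifolia it called 0, with 2 at an unadjusted p under 0.05. Of all genes 0.360% passed in V. cinerea and 0.844% in V. acerifolia.

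At maturity, listed genes passed as lower in V. labrusca and as higher in V. cinerea. In V. labrusca, 6 of 8 upstream genes (median -2.92), 1 of 6 downstream genes (-1.59), and 1 of 10 regulators (-1.63) passed as lower in boxed berries, beside a median of 0.10 for all genes. Of all genes 4.42% passed, 238 of 20333 of them as lower. In V. cinerea, 1 of 8 upstream genes, chalcone isomerase CHI2 (1.60, adjusted p = 0.00992), 2 of 6 downstream genes and 2 of 10 regulators passed as higher, beside a median of 0.14 for all genes. Of all genes 10.0% passed, 1594 of 20333 of them as higher, so that 1 of 8 upstream genes and 2 of 10 regulators are not far from the share of all genes. The downstream genes were AOMT, a methyltransferase of anthocyanins (3.80, adjusted p = 0.0131), and UFGT (4.06, adjusted p = 0.0182). The regulators were WDR1, a partner of MYB factors (2.34, adjusted p = 0.0131), and MYBA1 (1.97, adjusted p = 0.0407). All 6 downstream differences were positive in V. cinerea (median 1.82), whereas the upstream median was 0.70 with 5 of 8 positive. The difference between species, where 1.29% of all genes passed, did so for CHI2 (-3.35, adjusted p = 0.00486), CHS3 (-5.21, adjusted p = 0.0261), AM3 (-3.47, adjusted p = 0.0255) and MYBA1 (-4.24, adjusted p = 0.0163). Reads of the chalcone synthase and MYBA families may be split among near copies.

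**Figure D4:**
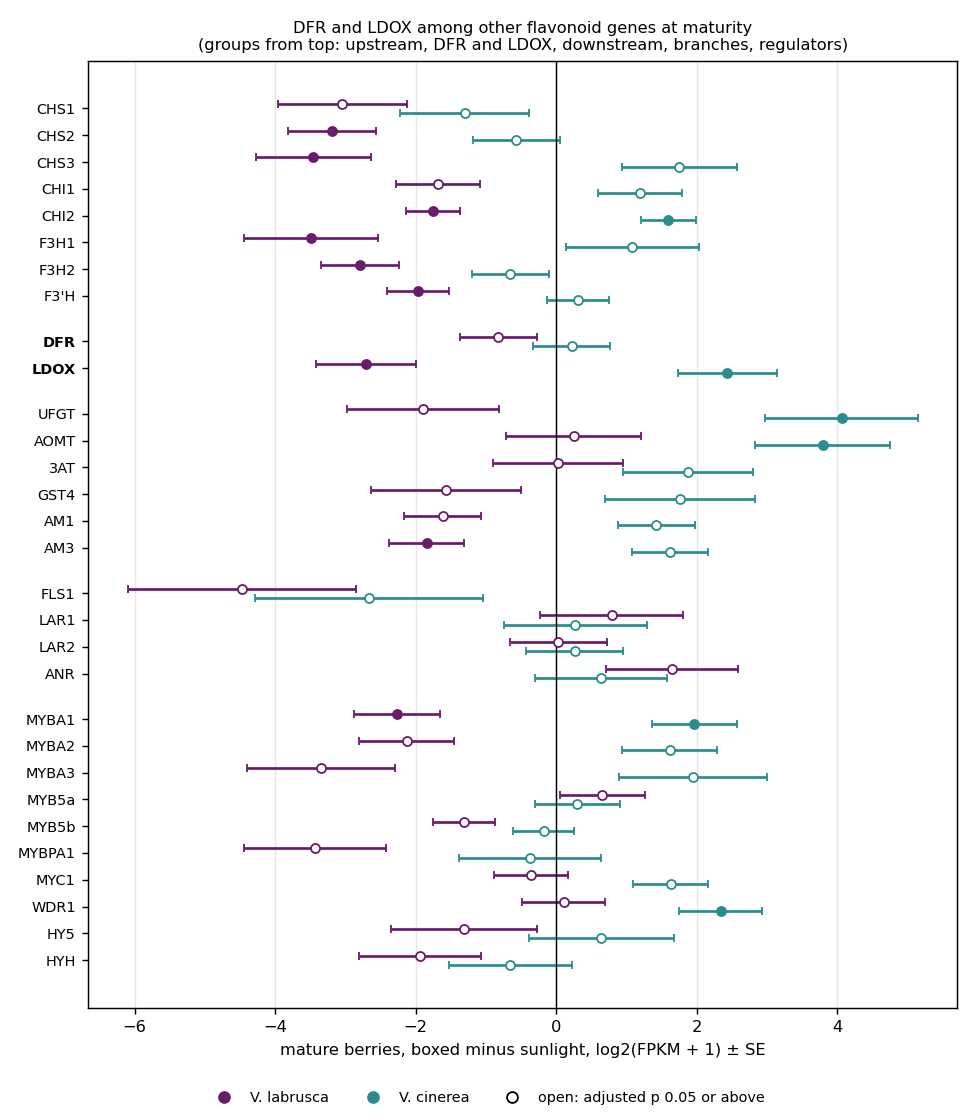
Fitted difference at maturity, boxed minus sunlight, on the log2(FPKM + 1) scale with its SE, for DFR, LDOX and the 28 listed genes of the route, in V. labrusca (purple) and V. cinerea (teal); filled points have an adjusted p under 0.05. LDOX lies at -2.70 in V. labrusca and at 2.44 in V. cinerea, while the DFR points at -0.82 and 0.22 are both open.

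Across all 56 libraries, DFR and LDOX correlated at r = 0.75 on log2(FPKM + 1). The libraries share stage, light and species effects, so the value is a description. Among 20834 genes, LDOX was the 2nd most alike to DFR, and DFR was the 10th most alike to LDOX. The 5 genes most alike to LDOX were F3H1 (0.83), CHS3 (0.82), VIT_13s0019g04460 (0.80), VIT_09s0002g06590 (0.79) and CHI2 (0.79). Those most alike to DFR were VIT_10s0003g00880 (0.78), LDOX, VIT_01s0011g01160 (0.74), VIT_01s0127g00260 (0.73) and VIT_03s0091g00310 (0.72). In V. labrusca alone (24 libraries) r was 0.91, LDOX was the gene most alike to DFR, and CHS3 (0.96), CHI2 (0.96), CHI1 (0.95), F3H1 (0.95) and VIT_13s0019g04460 (0.95) were most alike to LDOX. In V. cinerea alone (22 libraries) r was 0.64. There the genes most alike to LDOX were VIT_09s0002g06590 (0.90), AM3 (0.88), VIT_01s0010g03490 (0.86), 3AT (0.86) and UFGT (0.86), and those most alike to DFR included F3H1 (0.76) and CHS2 (0.71). In V. acerifolia (10 libraries, 3 of them against their label) r was -0.09.

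The labels give an anthocyanin concentration for each library, without a unit. In V. labrusca it was 0 in 10 libraries, comprising the young and pre-veraison ones and every boxed one, and 0.208 to 2.39 in the other 14. LDOX had 835 to 1762 FPKM (median 1076) in the 14 libraries above 0, against 34.0 to 763 FPKM (median 103) in the 10 at 0, with no overlap. The share of all genes that separate these libraries was not counted, and the split follows stage and boxing. DFR had 98.6 to 383 FPKM (median 262) above 0, against 44.4 to 314 FPKM (median 76.3) at 0, with overlap. Within the 14 libraries above 0 neither gene went up with the concentration. There Pearson's r was -0.32 for LDOX (permutation p = 0.264) and -0.47 for DFR (permutation p = 0.0921), and Spearman's rho was -0.26 (permutation p = 0.354) and -0.50 (permutation p = 0.0669). Over all 24 libraries r was 0.76 for LDOX (permutation p = 4e-05, adjusted over 4 relations 0.00016) and 0.58 for DFR (permutation p = 0.00401, adjusted 0.00535), with rho at 0.70 (permutation p = 0.00025, adjusted 0.001) and 0.50 (permutation p = 0.0134, adjusted 0.0179). Without the 2 libraries farthest from the median concentration r was 0.76 and 0.59. The pooled relation in V. labrusca thus rests on the libraries at 0.

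In V. cinerea the 5 libraries with a concentration of 5.22 to 6.97, all mature and none boxed, stood apart and were not pooled with the others. They had 120 to 629 FPKM of LDOX (median 224) and 80.3 to 180 FPKM of DFR (median 96.7). In the 11 libraries above 0 and below 3 the medians were 756 FPKM for LDOX and 92.3 FPKM for DFR. The cut at 3 was set with the concentrations known, and no r was computed over all 22 libraries. The correlations below therefore leave out the highest concentrations and do not hold for the species as a whole. The 2 mature boxed libraries, with the most LDOX in the species, had concentrations of 1.085 and 1.973, against 6.968 and 5.22 in the mature sunlight libraries. Over the other 17 libraries, 6 of them at 0, r was 0.67 for LDOX (permutation p = 0.00325, adjusted 0.00535) and 0.64 for DFR (permutation p = 0.00542, adjusted 0.00542). Spearman's rho was 0.77 (permutation p = 0.00064, adjusted 0.00128) and 0.55 (permutation p = 0.0236, adjusted 0.0236). Without the 2 libraries farthest from the median concentration, r was 0.66 for LDOX and 0.55 for DFR. In the 11 libraries above 0 and below 3, r was 0.56 for LDOX (permutation p = 0.0764) and 0.73 for DFR (permutation p = 0.0132). There rho was 0.36 for LDOX (permutation p = 0.276) and 0.55 for DFR (permutation p = 0.0811). V. acerifolia was given no correlation, since its concentrations were 0 in 5 libraries, 0.193 in 1 and 3.62 to 5.67 in 4. There DFR had 108 to 278 FPKM in the 5 libraries above 0, against 234 to 305 FPKM in the 5 at 0, and LDOX had 468 to 2282 FPKM above 0, against 350 to 795 FPKM at 0.

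**Figure D5:**
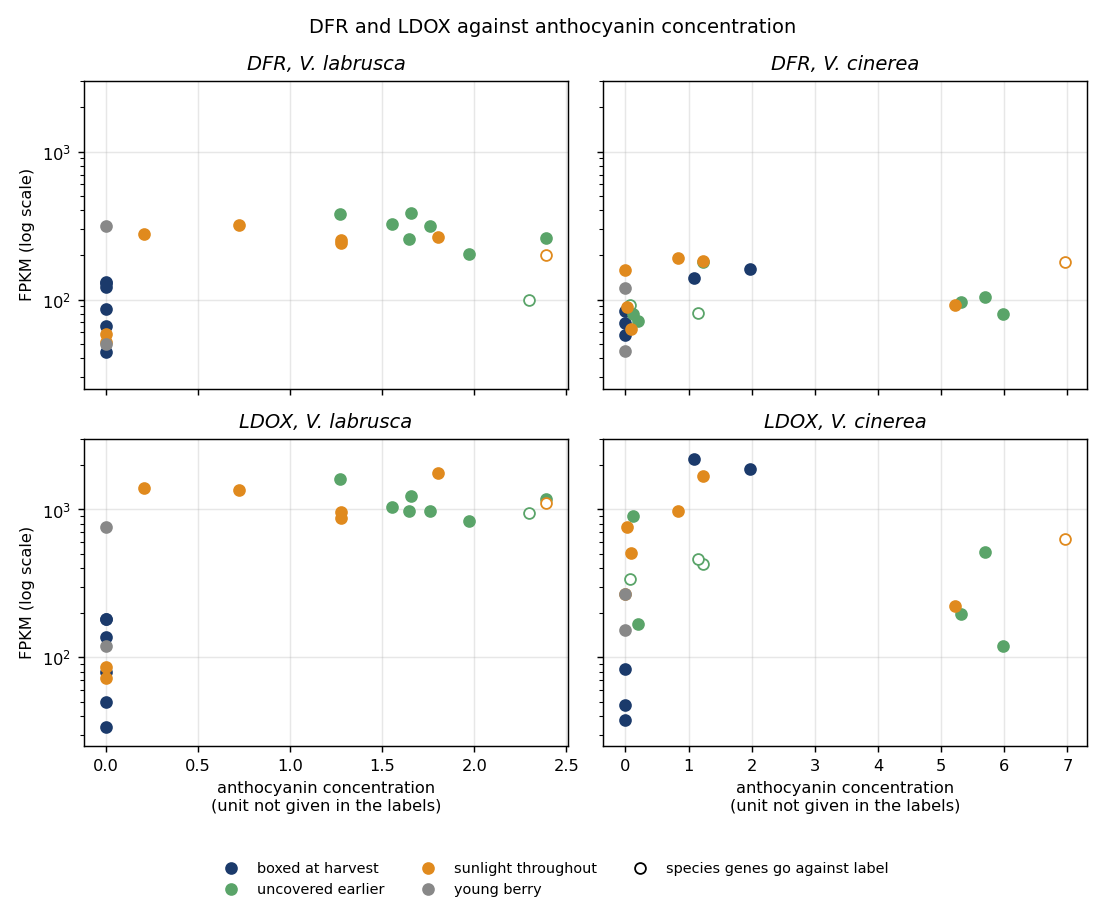
FPKM (log axis) of DFR (top) and LDOX (bottom) against the anthocyanin concentration of the labels (no unit given) in V. labrusca (left) and V. cinerea (right), by light treatment. In V. labrusca LDOX is at 34.0 to 763 FPKM where the concentration is 0 and at 835 to 1762 FPKM above it; in V. cinerea the 5 libraries above 5 hold 120 to 629 FPKM.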

How the data were processed

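Total RNA of berries was sequenced on Illumina instruments. Reads were aligned with TopHat2 2.0.14 and FPKM estimated with Cufflinks 2.2.1 by the authors, per the submitters' processing notes. No source used here names the genome build. The deposited FPKM values hold no read counts, so depth is unknown and no counting intervals are given. Groups follow titles, and 21 groups held 2 libraries and 14 held 1. Nothing states that replicates came from separate vines, so p-values measure the spread between these libraries.

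Genes that reached an FPKM of 1 in 2 or more libraries were tested on log2(FPKM + 1), which understates changes of low genes. limma 3.58.1 (R 4.3.3, empirical Bayes with trend) was used. Comparisons at a stage came from 1 fit of the 46 libraries of V. labrusca and V. cinerea (20333 genes; residual degrees of freedom 21). Those over stages came from 1 fit of 51 libraries from all 3 species (20252 genes tested, 34 residual degrees of freedom). Species-private genes (22, 13 and 271 for V. labrusca, V. cinerea and V. acerifolia) stood at least 1 log2 unit apart up to veraison. Sparse libraries are those whose lowest 1% of values above 0.01 FPKM ends above 0.5 FPKM. Correlations used 100000 two-sided permutations. The fits were tested on simulated data.

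DFR, LDOX and the lists were chosen with earlier results of these data known. Gene names other than those of the 2 members were recalled and not checked against an annotation. Named were at most 3 genes per list with the smallest p, and the 5 genes most alike to each member. UFGT, MYBA1, GIN1, ANR, LAR1 and MYBPA1 were also named as stage markers. Alternatives were another pseudocount (0.1), no filter, median-ratio scaling, a replicate block, each species alone, and fits without doubted libraries or without each library in turn.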

Additional observations from a re-analysis of the deposited data

Results flagged for a closer look

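One result stood out through a tested difference between species in the same contrast. For LDOX in mature berries, the boxed minus sunlight difference of V. labrusca minus that of V. cinerea was -5.14 on the log2(FPKM + 1) scale (SE 1.0, limma adjusted p = 0.0133). LDOX was lower in both boxed libraries than in both sunlight libraries of V. labrusca, and higher in both boxed than in both sunlight libraries of V. cinerea. In each species 1 of the 2 sunlight libraries has species-private genes that go against its label. Without all such libraries, which leaves 1 mature sunlight library in each species, the value was -5.79. The V. cinerea one left carries 38.5% of the V. cinerea private genes, against 84.6% in both boxed libraries. Each without 1 library, the difference lay between -5.88 and -4.40. Its call was lost without V. cinerea boxed replicate 1 or V. labrusca sunlight replicate 2. The comparison was added after the LDOX values had been seen, and no cause was tested.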

How the results depend on the processing

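Over 69 results, 503 of the alternatives other than leaving out 1 library kept the direction and the side of the threshold, 6 lost a call, 7 gained one, 2 reversed and 1 moved. Both reversals were the correlation with the concentration in V. labrusca in libraries above 0 (added after seeing the data), at -0.47 for DFR and -0.32 for LDOX. There LDOX of V. cinerea lost its call (0.56), as did DFR of V. labrusca from veraison on (0.39). Mature boxed minus sunlight LDOX lost its call in V. labrusca without the libraries that go against their labels (-2.60, adjusted p = 0.164) and in V. cinerea fitted alone (2.44, adjusted p = 0.0663). DFR over stages in V. labrusca gained one after scaling (-0.89) and without those libraries (-0.80). Leaving out 1 library each, 429 kept their side, 20 lost a call, 4 gained one and 21 reversed, none of the reversals where a call had been made. The cause was not tested.

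Each without 1 library, boxed minus sunlight ranged as follows. Over stages it was -0.88 to -0.57 for DFR in V. labrusca, -0.44 to 0.034 for DFR and -1.29 to 0.67 for LDOX in V. cinerea, and -0.29 to 0.076 for DFR in V. acerifolia. In mature berries it was -2.91 to -2.50 for LDOX in V. labrusca, and -0.26 to 0.71 for DFR and 1.69 to 3.18 for LDOX in V. cinerea. The mature difference between species was -5.88 to -4.40 for LDOX, and that at veraison -0.41 to 0.78. LDOX minus DFR in V. cinerea was -0.90 to 0.58. DFR was -0.36 to 0.14 at veraison in V. cinerea and -0.31 to 0.27 at pre-veraison in V. labrusca. Ranges of the other values that crossed 0 were -0.36 to 0.67 for DFR in mature V. labrusca uncovered at pre-veraison minus boxed, -2.49 to 0.13 for DFR at pre-veraison minus young in V. labrusca, -1.47 to 0.019 for LDOX at maturity minus veraison in V. cinerea sunlight, and -0.14 to 0.18 for LDOX uncovered minus sunlight in V. labrusca over stages.

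Median-ratio scaling brought the median of all genes to 0.02 in V. labrusca boxed minus sunlight over stages (0.12 as deposited) and to -0.13 at veraison minus pre-veraison (-0.32 as deposited). The correlation of deviations between same-numbered replicates had a median of 0.02 over 66 pairs of groups in V. labrusca and 0.07 over 36 in V. cinerea. It reached 0.73 and 0.42, and was above 0.1 in 6 and 14 pairs. A pairing by replicate number in some groups is thus not excluded. With a replicate block no call changed (LDOX -2.38, adjusted p = 0.00745, over stages in V. labrusca). Fits of each species alone give no difference between species. Depth is unknown, and groups of 1 or 2 libraries limit every test here.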
